A study of Homo sapiens with 24 samples.

Results

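The insulin-like growth factor (IGF) family was followed at the RNA level through its ligands IGF1 and IGF2, the receptor IGF1R and the binding proteins IGFBP1 to IGFBP7 in SW872 cells, an established human liposarcoma line. These 10 genes of the 60279 in the count files were chosen by their family membership and found by Ensembl identifier in every library. Genes averaging 5 or more counts over the libraries were tested, and 9 of the 10 did so, all but IGFBP1.

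IGF1 and IGF2 are secreted ligands that bind IGF1R, a receptor tyrosine kinase that signals to growth and survival through the PI3K-AKT and MAPK pathways. IGFBP1 to IGFBP6 are secreted proteins that bind both ligands with high affinity and can hold them away from the receptor or deliver them, and proteases release the ligand again by cutting the binding protein. IGFBP7 binds IGFs only weakly and is better known as a matrix protein of vessels and of senescent cells. Mesenchymal cells and sarcomas commonly make several of these proteins, and IGF2 is an imprinted gene that many sarcomas express.

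SW872 cells were transduced with a pBabeNeo retrovirus and kept as pooled, drug-selected populations, so every group, controls included, carried the vector and had passed selection. The 8 groups of 3 libraries each carried the empty vector (EV), the gene fusion TAZ-CAMTA1, TAZ4SA, the gene fusion YAP-TFE3, YAP5SA or TFE3, and, collected before confluence, CAMTA1 or the empty vector (EVsub). TAZ4SA and YAP5SA are forms of TAZ and YAP, the co-activators of the Hippo pathway that act through TEAD factors, in which serines that mark the proteins for removal from the nucleus are replaced by alanine. The fusions join the TEAD-binding front of TAZ or YAP to the back of the transcription factor CAMTA1 or TFE3, and both occur in epithelioid hemangioendothelioma, a vascular sarcoma. EV, TAZ4SA, YAP-TFE3, YAP5SA and TFE3 cells were collected 48 hours after they became confluent. CAMTA1 cells were therefore compared with EVsub, and the sources do not state in so many words whether the TAZ-CAMTA1 cells, which also carry CAMTA1 sequence, were taken before or after confluence. Construct and confluence therefore cannot be told apart where TAZ-CAMTA1 is compared with a confluent group. The libraries are described as biological triplicates, each from a separate transduction followed by stable selection.

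Libraries held 19700277 to 35287476 counts, and mitochondrial genes took 3.20% to 6.36% of them. The introduced genes followed their labels for CAMTA1 and TFE3, and YAP1 did so in YAP5SA. WWTR1, the gene for TAZ, did not follow its labels. WWTR1 stood at 134 ± 0.539 CPM (counts scaled to library size; SD, n = 3) in libraries labelled TAZ4SA against 204 ± 20.3 CPM in EV, so the counts alone do not show the construct in that group. It was also below EV in groups without a TAZ construct, YAP-TFE3 (126 ± 3.18 CPM) and YAP5SA (68.7 ± 1.66 CPM). YAP5SA lay below TAZ4SA (log2 change -0.97 ± 0.08, SE; edgeR adjusted p = 2.08e-08). EVsub (219 ± 8.14 CPM), CAMTA1 (235 ± 27.2 CPM) and TFE3 (193 ± 9.20 CPM) overlapped with EV. The study shows a western blot of Flag-tagged TAZ4SA in SW872 cells. In TAZ-CAMTA1 WWTR1 stood at 181 ± 2.15 CPM and was not called against EV (edgeR adjusted p = 0.236). YAP1 in YAP-TFE3 stood at 153 ± 16.0 CPM, called above EV (128 ± 12.5 CPM, edgeR adjusted p = 0.0341) but overlapping with it. Groups without a YAP construct stood as high, EVsub at 154 ± 18.6 CPM and TAZ-CAMTA1 at 168 ± 11.4 CPM. YAP1 counts alone therefore do not show the construct in YAP-TFE3. Replicate 3 of YAP-TFE3 stood apart from its group, with a chi-square per degree of freedom of 56.2 and 71.3 against its partners, where the other 22 pairs within groups gave 3.33 to 25.9. The 6 mesenchymal markers summed to 6170 to 7250 CPM in EV and to 2180 to 9610 CPM over all libraries, and their part in the results was not tested. Of these markers, VIM reached 804 ± 57.5 CPM and SPARC 1639 ± 185 CPM in EV. ADIPOQ and FABP4, which define fat cells, were at 0 in all 3 EV libraries, while PPARG (46.8 ± 4.07 CPM) and LPL (140 ± 33.2 CPM) were detected. ADIPOQ was at 0 in all 24 libraries, and FABP4 had 17 to 23 counts in each YAP-TFE3 library (0.633 ± 0.13 CPM), where PPARG and LPL stood at 87.3 ± 21.8 and 257 ± 15.2 CPM, and at most 1 count elsewhere. The 4 endothelial markers summed to 79.8 to 119 CPM in EV and to 13.2 to 131 CPM over all libraries, and their part in the results was not tested. The 3 skeletal muscle markers summed to 1.02 to 1.55 CPM in EV and to 0.846 to 32.7 CPM over all libraries. Among them MYOD1, a transcription factor of muscle, stood at 0.431 ± 0.171 CPM in EV, 21.6 ± 8.95 CPM in libraries labelled TAZ4SA and 13.4 ± 9.03 CPM in YAP5SA, the groups with the highest IGF2 and IGFBP4, while MYOG had at most 4 counts in any library, and their part in the results was not tested. The 4 blood markers summed to at most 1.73 CPM and the 4 epithelial ones to at most 4.14 CPM.

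Promoters of 7 of the 10 genes were found in the RefSeq table of GRCh38.p14, 10 promoters in all, and IGF2, IGFBP1 and IGFBP7 had no entry. The 250 bases before each start were searched on both strands for GGAATG, the core of the TEAD site (CATTCC on the other strand), and for CACGTG, the palindromic core E-box bound by the MiT/TFE factors to which TFE3 belongs. The TEAD core was present in 2 of these 10 promoters, those of IGFBP5 and IGFBP6, and in 11.9% of all 35116 promoters of the table. The E-box was in none of the 10 and in 6.34% of all promoters. The promoters of IGFBP5, IGFBP6 and IGFBP4 are shown because the mean of each was highest in YAP5SA cells and the first 2 carry the core; capitals mark it.
IGFBP5 (minus strand, chr2:216695550-216695799): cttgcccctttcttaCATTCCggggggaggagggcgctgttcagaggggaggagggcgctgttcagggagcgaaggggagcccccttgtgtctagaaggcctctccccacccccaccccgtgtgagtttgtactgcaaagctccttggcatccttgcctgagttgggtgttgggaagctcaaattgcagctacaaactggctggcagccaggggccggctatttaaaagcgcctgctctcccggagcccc
IGFBP6 (plus strand, chr12:53097417-53097666): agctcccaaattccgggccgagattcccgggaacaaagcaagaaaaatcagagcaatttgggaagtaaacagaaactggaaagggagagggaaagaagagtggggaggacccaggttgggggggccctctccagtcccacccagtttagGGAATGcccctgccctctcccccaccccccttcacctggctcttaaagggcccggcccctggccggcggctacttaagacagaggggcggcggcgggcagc
IGFBP4 (plus strand, chr17:40443200-40443449): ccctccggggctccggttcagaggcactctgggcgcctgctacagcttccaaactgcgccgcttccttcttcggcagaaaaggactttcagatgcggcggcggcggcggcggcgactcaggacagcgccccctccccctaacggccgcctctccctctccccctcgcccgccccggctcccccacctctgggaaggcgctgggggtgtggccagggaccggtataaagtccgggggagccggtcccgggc
The core began 235 bases before the start in IGFBP5 and 101 bases before it in IGFBP6. The starts are those of RefSeq, and in the GENCODE annotation IGFBP6 begins further upstream, at 53097436. Most of the IGFBP6 window, its core included, therefore lies inside that annotated gene. Such a match is a description of the letters, and binding was not measured in the files used here.

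Per transcript length 5 of the 7 binding proteins stood above both ligands. In EV, IGFBP4 stood at 240 ± 26.2 RPKM (counts scaled to library size and exon length; SD, n = 3), IGFBP2 at 114 ± 7.54, IGFBP7 at 70.8 ± 1.66, IGFBP6 at 31.7 ± 3.38 and IGFBP5 at 14.4 ± 3.31 RPKM. The receptor IGF1R reached 5.20 ± 0.302 RPKM and the ligand IGF2 2.43 ± 0.358 RPKM. IGFBP3 lay at 0.867 ± 0.0439 RPKM and IGF1 at 0.0722 ± 0.0271 RPKM. Each gene stood above the next in this order in every EV library. IGFBP1, a binding protein made mainly by liver, had 3 counts over all 24 libraries and 0 in 21 of them. A count of 0 allows up to 3 counts, which is 0.0852 to 0.147 CPM at these depths.

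The make-up of the binding protein RNA differed between groups. IGFBP4 accounted for 50.8 ± 2.69% of the summed IGFBP RPKM in EV, for 63.3 ± 5.80% in YAP5SA and 66.4 ± 2.98% in those labelled TAZ4SA, and for 41.3 ± 3.57% in YAP-TFE3. IGFBP7 accounted for 15.1 ± 1.17% in EV and 30.3 ± 1.24% in YAP-TFE3. IGFBP2 accounted for 24.2 ± 0.515% in EV and only 8.05 ± 0.226% in YAP5SA. The sum itself was 472 ± 26.8 RPKM in EV and 784 ± 108 RPKM in YAP5SA, and the 3 libraries of each group did not overlap.

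**Figure D1:**
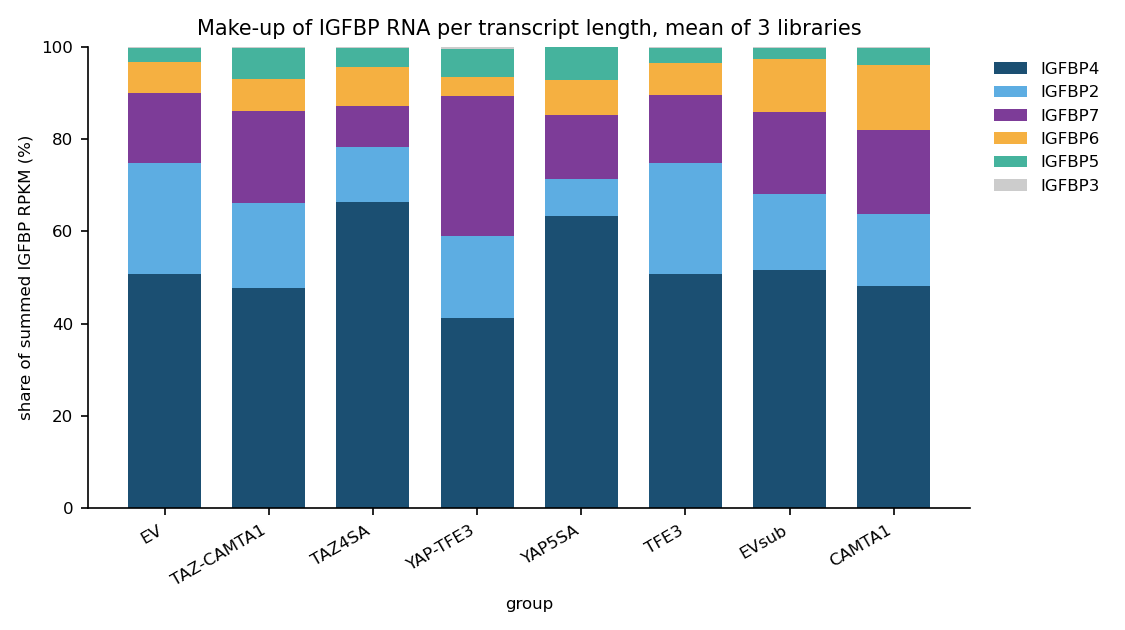
Share of the summed RPKM of the IGFBP genes (percent, y axis) taken by each gene in the 8 groups (x axis), as stacked bars of the mean of 3 libraries; IGFBP1 is not drawn. IGFBP4 takes the largest share in every group, 66.4% in the libraries labelled TAZ4SA and 41.3% in YAP-TFE3, and IGFBP7 doubles its band in YAP-TFE3 at 30.3%.

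In YAP5SA against EV, 8 of the 9 tested genes changed (6 higher, 2 lower), where 44.3% of all 19997 tested genes passed the same threshold (edgeR adjusted p under 0.05), 22.7% higher and 21.6% lower. In libraries labelled TAZ4SA 7 of the 9 changed (4 higher, 3 lower), against 49.2% of all genes, 25.1% higher and 24.2% lower. In YAP-TFE3 6 changed (2 higher, 4 lower), against 48.2%, 25.6% higher and 22.6% lower. The number was the same without YAP-TFE3 replicate 3, and ran from 4 to 6 over the fits that left out 1 library. In TAZ-CAMTA1 IGF2 and IGFBP7 were higher, 2 of the 9, against 4.98% of all genes, 3.55% higher and 1.44% lower. Without any 1 of 5 of the 6 libraries only IGFBP7 remained. None of the 9 was called in TFE3, against 0.035% of all genes, all of them higher, with 1 family gene at an unadjusted p under 0.05 and none called by DESeq2. None was called in CAMTA1 against EVsub, where 1.83% of all genes passed, 1.26% higher and 0.57% lower, with 3 family genes at an unadjusted p under 0.05 and 1 called by DESeq2, IGF1R. Sub-confluent EVsub differed from confluent EV in 4 of the 9 (1 higher, 3 lower), against 36.8% of all genes, 19.8% higher and 17.1% lower. All comparisons with EV share its 3 libraries. The median log2 change of the 9 genes was 0.64 in YAP5SA and -0.36 in YAP-TFE3, and that of all tested genes -0.04 and -0.01.

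**Figure D2:**
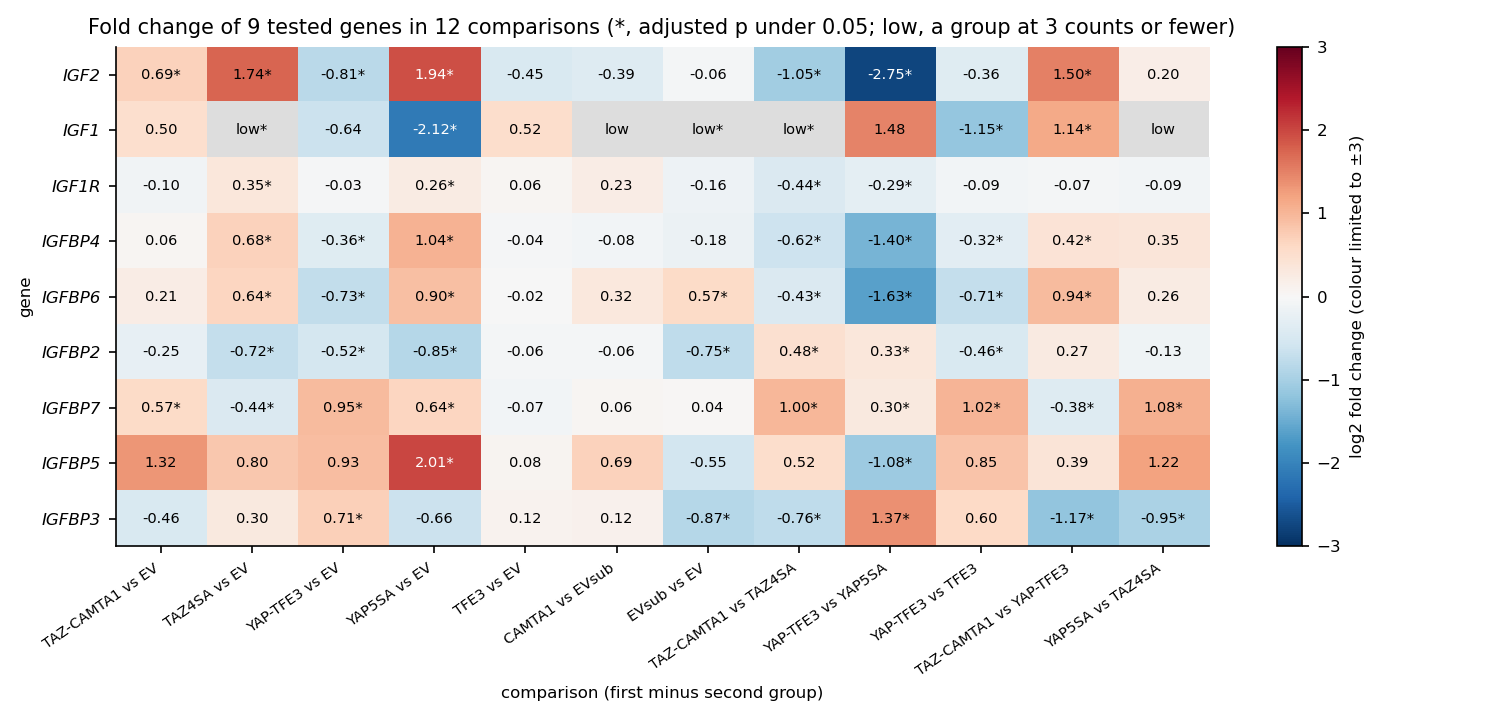
Heat map of the log2 fold change (first minus second group) of the 9 tested genes (y axis) in 12 comparisons (x axis), red for higher and blue for lower in the first group; an asterisk marks an edgeR adjusted p under 0.05, and grey cells marked low have a group with at most 3 counts in every library. IGF2, IGFBP4 and IGFBP6 are red with asterisks in YAP5SA and the libraries labelled TAZ4SA and blue with asterisks in YAP-TFE3, and the TFE3 and CAMTA1 columns hold no asterisk.

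IGF2, the fetal growth factor of the family, had the widest range of the well-counted genes and was higher than EV in YAP5SA and lower in YAP-TFE3. It is annotated on the minus strand of chromosome 11 (2129112 to 2158391, GRCh38). The EV libraries gave 19.4, 14.5 and 18.2 CPM. The YAP5SA libraries gave 59.1, 72.4 and 68.1 CPM and those labelled TAZ4SA gave 59.95, 65.3 and 49.2 CPM, all above every other group. This was a log2 change of 1.94 ± 0.18 (SE; edgeR adjusted p = 5.28e-09) for YAP5SA and 1.74 ± 0.18 (edgeR adjusted p = 2.79e-08) for TAZ4SA, and the direct comparison of these groups gave 0.20 ± 0.17 (edgeR adjusted p = 0.612).

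In TAZ-CAMTA1 cells IGF2 lay between, at 28.5, 28.3 and 27.4 CPM, above each EV library. The log2 change from EV was 0.69 ± 0.18 (edgeR adjusted p = 0.0239). This call was lost when any 1 of EV replicates 2 and 3 or TAZ-CAMTA1 replicates 1, 2 and 3 was left out, with adjusted p of 0.0562 to 0.154. TAZ-CAMTA1 lay 1.05 ± 0.18 below TAZ4SA on the log2 scale (edgeR adjusted p = 2.33e-05). YAP-TFE3 held the lowest level, with 7.19, 8.60 and 13.8 CPM, below every EV library. The log2 change was -0.81 ± 0.19 (edgeR adjusted p = 0.000825), and -1.14 without replicate 3, which had the highest of these values. YAP-TFE3 lay 2.75 ± 0.19 below YAP5SA on the log2 scale (edgeR adjusted p = 1.74e-11), the largest difference of a family gene with over 5 counts in every library, over the 12 comparisons. The order of group means ran YAP5SA, TAZ4SA, TAZ-CAMTA1, EV, EVsub, CAMTA1, TFE3 and YAP-TFE3, and neighbours overlapped except TAZ4SA with TAZ-CAMTA1, TAZ-CAMTA1 with EV and EVsub with CAMTA1.

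Reads over IGF2 can be shared with other annotated genes, so its values carry that uncertainty. INS-IGF2, a read-through gene on the same strand, shares 1460 exon bases with it and had 0 counts in every library, and IGF2-AS on the other strand had 0 to 12 counts against 221 to 1694 for IGF2. Whether strand was used in counting was not given in the sources used here.

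IGF1, the postnatal ligand, was near the limit of detection, with 0 to 36 counts a library. EV libraries held 19, 20 and 7 counts, TAZ-CAMTA1 libraries 27, 31 and 16, and TFE3 libraries 36, 35 and 14. The libraries labelled TAZ4SA held 0, 3 and 2 counts, EVsub 2, 3 and 2, CAMTA1 0, 2 and 1, and YAP5SA 5, 2 and 2. The first 3 groups did not overlap with the last 4. Summed over 3 libraries, IGF1 in EV was 8.99 times that of TAZ4SA (95% counting interval 3.58 to 29, exact Clopper-Pearson), 7.25 times that of EVsub (3.25 to 19) and 4.52 times that of YAP5SA (2.19 to 10.5). These intervals cover counting error only. All 3 differences were called (edgeR adjusted p = 0.00117, 0.00253 and 0.0101). YAP-TFE3 libraries held 21, 11 and 5 counts and overlapped with EV. TAZ-CAMTA1 did not differ detectably from EV (log2 change 0.50 ± 0.45, edgeR adjusted p = 0.607).

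IGF1R, the signalling receptor, was the steadiest gene of the family, with group means from 64.8 ± 3.54 CPM in EVsub to 92.2 ± 0.969 CPM in the libraries labelled TAZ4SA. EV libraries gave 70.3, 77.4 and 69.9 CPM, TAZ4SA libraries 92.5, 93.0 and 91.1 CPM and YAP5SA libraries 87.4, 87.6 and 85.0 CPM, without overlap. The log2 changes were 0.35 ± 0.07 (edgeR adjusted p = 0.000178) and 0.26 ± 0.07 (edgeR adjusted p = 0.0034). Both calls ended under scaling to total counts, where the changes were 0.15 (adjusted p = 0.051) and 0.07 (adjusted p = 0.363). That scaling moved the median of all genes by -0.197 and -0.185 on the log2 scale in these comparisons.

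**Figure D3:**
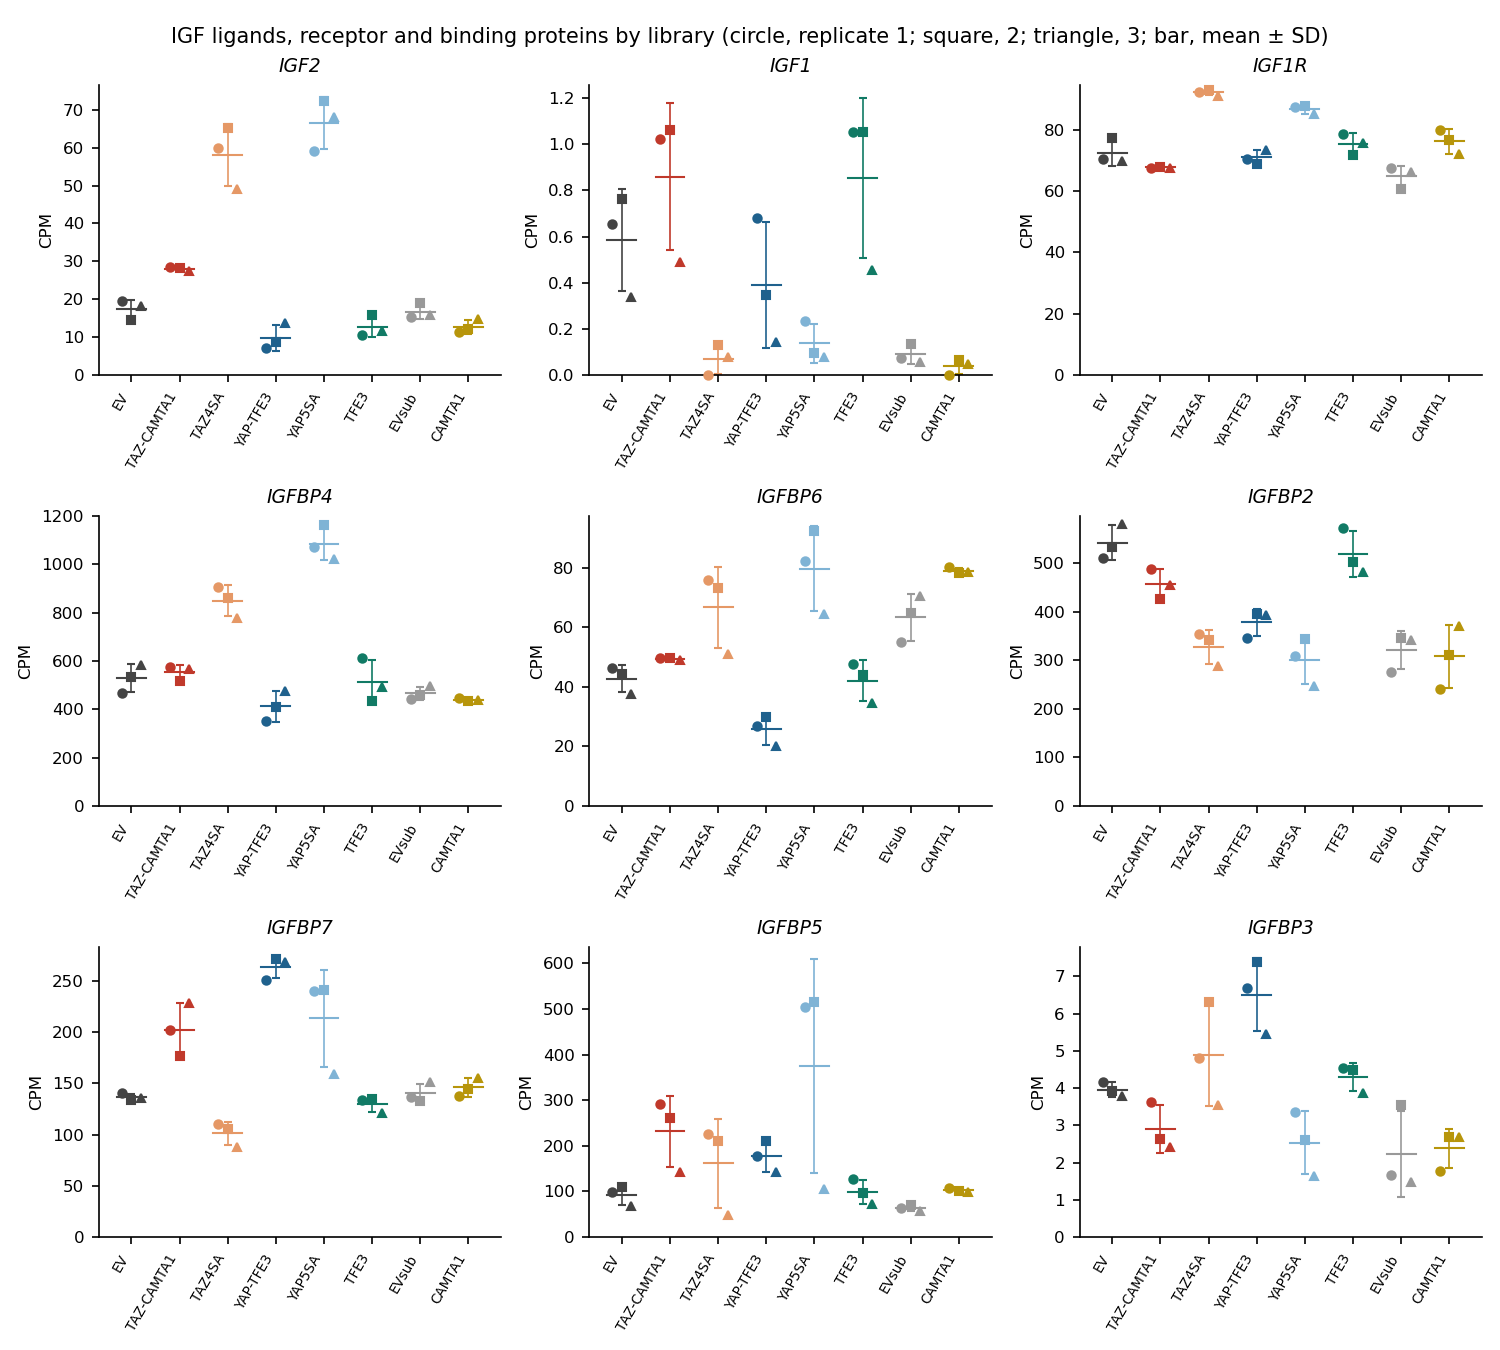
CPM (y axis, from 0) of the 9 tested genes in the 8 groups (x axis), 1 panel a gene; symbols are single libraries, with the replicate number by shape, and bars give the mean and SD of 3. IGF2 sits at 49.2 to 72.4 CPM in YAP5SA and the libraries labelled TAZ4SA and at or below 28.5 CPM elsewhere, and IGFBP5 is lowest in the triangle of every group.

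IGFBP4, the most abundant family transcript and a binding protein that inhibits IGF action, followed the same order as IGF2 in the extreme groups. It lies on the plus strand of chromosome 17 (40443450 to 40457725). EV libraries gave 469, 536 and 584 CPM, YAP5SA libraries 1072, 1161 and 1024 CPM and TAZ4SA libraries 907, 862 and 780 CPM. The YAP5SA and TAZ4SA libraries lay above all others. The log2 changes were 1.04 ± 0.11 (edgeR adjusted p = 7.00e-08) and 0.68 ± 0.11 (edgeR adjusted p = 2.54e-05), and YAP5SA and TAZ4SA differed by 0.35 ± 0.11 (edgeR adjusted p = 0.0587). YAP-TFE3 libraries gave 351, 411 and 477 CPM and overlapped with EV in 1 library. That change of -0.36 ± 0.11 (edgeR adjusted p = 0.0111) was no longer called without EV replicate 3 (adjusted p = 0.0684) or without YAP-TFE3 replicate 1 (adjusted p = 0.0852). YAP-TFE3 lay 1.40 ± 0.11 below YAP5SA on the log2 scale (edgeR adjusted p = 4.35e-10), and TAZ-CAMTA1, at 575, 516 and 567 CPM, lay 0.62 ± 0.11 below TAZ4SA (edgeR adjusted p = 6.74e-05) with no detectable difference from EV (0.06 ± 0.11).

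IGFBP6, a binding protein with a preference for IGF2, was higher in YAP5SA (82.2, 92.4 and 64.5 CPM) and in the libraries labelled TAZ4SA (75.9, 73.0 and 51.0 CPM) than in EV (46.2, 44.3 and 37.5 CPM). No library of these groups overlapped with EV, and the log2 changes were 0.90 ± 0.16 (edgeR adjusted p = 4.80e-05) and 0.64 ± 0.15 (edgeR adjusted p = 0.00144). YAP-TFE3 cells held 27.0, 30.02 and 20.1 CPM, the lowest of any group, a log2 change of -0.73 ± 0.16 from EV (edgeR adjusted p = 0.00045) and of -1.63 ± 0.16 from YAP5SA (edgeR adjusted p = 6.93e-09). IGFBP6 was also the gene called higher in EVsub (54.9, 64.7 and 70.5 CPM), by 0.57 ± 0.15 (edgeR adjusted p = 0.00585). CAMTA1 cells, also sub-confluent, stood at 80.1, 78.3 and 78.6 CPM, above each EVsub library, but the difference of 0.32 ± 0.15 was not called (edgeR adjusted p = 0.400).

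IGFBP2, which in EV was second to IGFBP4, was highest in EV (511, 532 and 581 CPM) and TFE3 (571, 502 and 481 CPM). YAP5SA libraries gave 309, 343 and 247 CPM and TAZ4SA libraries 354, 341 and 288 CPM. YAP-TFE3 libraries gave 346, 395 and 393 CPM, and EVsub libraries 276, 346 and 341 CPM. None of these 4 groups overlapped with EV. The log2 changes were -0.85 ± 0.13 in YAP5SA, -0.72 ± 0.13 in TAZ4SA, -0.52 ± 0.13 in YAP-TFE3 and -0.75 ± 0.13 in EVsub, with edgeR adjusted p between 1.25e-05 and 0.00223. TAZ-CAMTA1 libraries, at 487, 427 and 455 CPM, also lay below EV, but the change of -0.25 ± 0.13 was not called (edgeR adjusted p = 0.337). TAZ-CAMTA1 exceeded TAZ4SA by 0.48 ± 0.13 (edgeR adjusted p = 0.00381). The means of EVsub and TAZ4SA were 321 ± 39.2 and 328 ± 34.7 CPM, and their libraries overlapped.

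IGFBP7, the matrix-associated low-affinity member, was higher than EV in YAP5SA and lower in libraries labelled TAZ4SA. EV libraries gave 140, 134 and 136 CPM, YAP5SA libraries 240, 241 and 159 CPM and TAZ4SA libraries 110, 105 and 88.3 CPM, with no overlap between the 3 groups. The log2 change from EV was 0.64 ± 0.12 in YAP5SA (edgeR adjusted p = 0.000125) and -0.44 ± 0.12 in TAZ4SA (edgeR adjusted p = 0.00436). The direct comparison of YAP5SA with TAZ4SA gave 1.08 ± 0.12 (edgeR adjusted p = 1.64e-06), and only IGFBP7 and IGFBP3 of the 9 genes were called there, against 7.17% of all genes, 3.64% higher and 3.53% lower. IGFBP7 was higher than EV in both fusion groups, at 251, 271 and 268 CPM in YAP-TFE3 (0.95 ± 0.12, edgeR adjusted p = 5.94e-07) and at 201, 177 and 228 CPM in TAZ-CAMTA1 (0.57 ± 0.12, edgeR adjusted p = 0.00483). TAZ-CAMTA1 lay 1.00 ± 0.12 above TAZ4SA (edgeR adjusted p = 2.66e-07). YAP-TFE3 exceeded YAP5SA by 0.30 ± 0.12 (edgeR adjusted p = 0.0353), and this call ended without YAP5SA replicate 3 (0.13, adjusted p = 0.293), YAP-TFE3 replicate 2 (adjusted p = 0.0869) or YAP-TFE3 replicate 3 (adjusted p = 0.0673). TAZ-CAMTA1 against YAP-TFE3 gave -0.38 ± 0.12 (edgeR adjusted p = 0.0122), which was lost without TAZ-CAMTA1 replicate 2 (-0.29, adjusted p = 0.0827). IGFBP7 shares 260 exon bases with POLR2B on the other strand, whose level was 177 CPM in EV and 149 to 196 CPM in these groups.

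IGFBP5, a binding protein of bone and muscle that also binds matrix, had the largest rise of a binding protein but depended on the replicate number. EV libraries gave 99.9, 110 and 68.7 CPM for replicates 1, 2 and 3. YAP5SA libraries gave 505, 515 and 105 CPM, and TAZ4SA libraries 225, 210 and 49.0 CPM. TAZ-CAMTA1 libraries gave 291, 262 and 143 CPM, and YAP-TFE3 libraries 179, 211 and 142 CPM. Replicate 3 was the lowest in all 8 groups, a pattern shared by 48 of the 19997 tested genes (0.24%). It was also the lowest in 7 groups for IGFBP3, in 6 for IGF1 and IGFBP6, and in 2 for IGF2 and IGFBP4. Replicates of a group are described as separate transductions. Neither the study nor the labels say whether the same replicate number links libraries of different groups.

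In the fit of all groups with all libraries, IGFBP5 was called higher than EV in YAP5SA and in no other group (2.01 ± 0.45, edgeR adjusted p = 0.000773), although its replicate 3 lay within the EV range. The log2 changes in TAZ-CAMTA1 (1.32 ± 0.44), YAP-TFE3 (0.93 ± 0.44) and TAZ4SA (0.80 ± 0.44) were not called, with edgeR adjusted p of 0.0894, 0.0829 and 0.135. Fitted on the groups compared alone, the first 2 were called, at 1.31 (adjusted p = 0.00129) and 0.92 (adjusted p = 0.00274). When replicate 3 was left out of every group, a setting chosen after these values were seen, all 3 were called, at 1.40 (adjusted p = 6.56e-07), 0.89 (adjusted p = 4.58e-06) and 1.05 (adjusted p = 9.07e-07). Without TAZ4SA replicate 3 alone the TAZ4SA change was 1.23 (adjusted p = 0.0118). In the same reduced set YAP5SA exceeded TAZ4SA by 1.23 (adjusted p = 2.21e-06), where all libraries gave 1.22 ± 0.44 (edgeR adjusted p = 0.104). Without YAP5SA replicate 3 alone this was 1.66 (adjusted p = 0.00703). EVsub (63.0, 69.3 and 58.1 CPM) and TFE3 (126, 96.1 and 73.1 CPM) were not called against EV in the fit of all groups. EVsub was called lower without replicate 3 in every group (-0.66, adjusted p = 0.000555) and with the groups compared alone (-0.56, adjusted p = 0.00306). YAP-TFE3 lay 1.08 ± 0.43 below YAP5SA (edgeR adjusted p = 0.04), and this call was lost without YAP5SA replicate 1 or 2 or YAP-TFE3 replicate 1 or 3 (adjusted p = 0.174, 0.185, 0.0805 and 0.115). Without replicate 3 in every group it was -1.39 (adjusted p = 2.04e-08). DIRC3-AS1, which shares 487 exon bases with IGFBP5 on the other strand, had 0 to 42 counts a library where IGFBP5 had 1271 to 10817.

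IGFBP3, the main carrier of IGFs in serum, was scarce here at 1.48 to 7.38 CPM, or 41 to 235 counts a library. YAP-TFE3 libraries held the most, at 6.70, 7.38 and 5.47 CPM, above each EV library (4.18, 3.92 and 3.78 CPM). The log2 change of 0.71 ± 0.26 (edgeR adjusted p = 0.0245) was lost without EV replicate 2 or 3 or YAP-TFE3 replicate 1 or 2 (adjusted p = 0.0626, 0.0652, 0.0527 and 0.0877). YAP-TFE3 exceeded YAP5SA (3.35, 2.62 and 1.65 CPM) by 1.37 ± 0.27 (edgeR adjusted p = 0.00017) and TAZ-CAMTA1 (3.64, 2.64 and 2.43 CPM) by a difference that read -1.17 ± 0.26 in the other direction (edgeR adjusted p = 0.000784). Both groups lay below every YAP-TFE3 library. EVsub, at 1.68, 3.56 and 1.48 CPM, was lower than EV by -0.87 ± 0.28 (edgeR adjusted p = 0.0186), and this was lost without EVsub replicate 1 (adjusted p = 0.0968) or 3 (adjusted p = 0.128). YAP5SA was lower than TAZ4SA (4.82, 6.32 and 3.55 CPM) by -0.95 ± 0.28 (edgeR adjusted p = 0.0367), a call lost without TAZ4SA replicate 1 or 2 or YAP5SA replicate 2 or 3 (adjusted p = 0.0924, 0.216, 0.0762 and 0.204).

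Set against the parent forms, the fusion groups differed in most of the family. TAZ-CAMTA1 and TAZ4SA differed in 8 of the 9 tested genes (3 higher, 5 lower), against 53.7% of all genes, 26.9% higher and 26.8% lower. YAP-TFE3 and YAP5SA differed in 8 (3 higher, 5 lower), against 52.4%, 28.1% higher and 24.3% lower. Leaving out 1 library gave 6 to 8 genes in the first comparison and 6 to 7 in the second. DESeq2 called 8 and 7. In the first comparison IGF1 rests on TAZ4SA libraries with 0, 3 and 2 counts. IGFBP3 had overlapping groups there. Its call was lost without TAZ4SA replicate 2 (adjusted p = 0.1375) or TAZ-CAMTA1 replicate 2 or 3 (adjusted p = 0.0664 and 0.0855). Total-count scaling also ended it (adjusted p = 0.0774). YAP-TFE3 differed from TFE3 in 5 (1 higher, 4 lower), against 48% of all genes, 25.4% higher and 22.5% lower, and this count was 3 without TFE3 replicate 1 or without YAP-TFE3 replicate 2. TAZ-CAMTA1 differed from YAP-TFE3 in 6 (4 higher, 2 lower), against 42.7%, 19.9% higher and 22.8% lower. Leaving out 1 library gave 4 to 6. IGF1, 1 of the 4 higher, had few counts and overlapping groups (edgeR adjusted p = 0.0491). Its call was lost in 4 of 6 fits without 1 library, with DESeq2 (adjusted p = 0.0796) and with the groups compared alone (adjusted p = 0.102). In both pairs of fusion and parent, IGF2, IGF1R, IGFBP4 and IGFBP6 were lower and IGFBP2 and IGFBP7 higher in the fusion. IGFBP3 was called in both pairs in opposite directions. It was lower in TAZ-CAMTA1 than in TAZ4SA (-0.76 ± 0.27, edgeR adjusted p = 0.0201) and higher in YAP-TFE3 than in YAP5SA. IGF1 was called only in the first pair and IGFBP5 only in the second. IGFBP6 in TAZ-CAMTA1 (49.7, 49.7 and 49.0 CPM) was lower than in TAZ4SA by -0.43 ± 0.15 (edgeR adjusted p = 0.0214), a call that ended without TAZ4SA replicate 1 (adjusted p = 0.12) or 2 (adjusted p = 0.0902), without TAZ-CAMTA1 replicate 3 (adjusted p = 0.0538) and under total-count scaling (-0.23, adjusted p = 0.193). IGFBP2 in YAP-TFE3 against YAP5SA (0.33 ± 0.13, edgeR adjusted p = 0.0369) lost its call in 4 of 6 fits that left out 1 library. These were the fits without YAP5SA replicates 1 and 3 and YAP-TFE3 replicates 2 and 3 (adjusted p = 0.0589, 0.206, 0.0989 and 0.0846).

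Other genes of IGF signalling were taken from a list of 30 receptors, adaptors, IGFBP proteases, RNA-binding proteins and PI3K-AKT genes, of which 27 could be tested. Against EV, 2 (7.41%) were called in TAZ-CAMTA1, where 4.98% of all genes were, 20 (74.1%) in TAZ4SA against 49.2%, 21 (77.8%) in YAP-TFE3 against 48.2% and 22 (81.5%) in YAP5SA against 44.3%. In EVsub 11 (40.7%) were called against 36.8% of all genes, near that share. None was called in TFE3 against EV or in CAMTA1 against EVsub. The median log2 change of the list was 0.52 in YAP5SA, 0.35 in TAZ4SA and 0.27 in YAP-TFE3, where all tested genes had medians of -0.04, -0.03 and -0.01. The 2 genes higher in TAZ-CAMTA1 were FOXO1, a transcription factor that AKT holds inactive (0.36 ± 0.10, edgeR adjusted p = 0.0327), and the adaptor SHC1 (0.36 ± 0.10, edgeR adjusted p = 0.0411). Each call was lost in 5 of the 6 fits that left out 1 library (adjusted p up to 0.126 and 0.197).

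Proteases of the binding proteins and their inhibitors were among the genes called. PAPPA, the protease that cuts IGFBP4, stood at 59.7, 61.4 and 28.5 CPM in EV and at 136, 139 and 99.8 CPM in YAP5SA, with no overlap (1.32 ± 0.33, edgeR adjusted p = 0.00218). YAP-TFE3 held 29.8, 27.9 and 9.49 CPM, overlapping with EV in 1 library, a log2 change of -1.16 ± 0.34 (edgeR adjusted p = 0.00614). STC2, an inhibitor of PAPPA, was higher than EV in YAP5SA, YAP-TFE3 and the libraries labelled TAZ4SA. EV libraries gave 43.0, 42.4 and 42.0 CPM, TAZ4SA libraries 223, 253 and 216 CPM, YAP5SA libraries 279, 288 and 256 CPM and YAP-TFE3 libraries 581, 612 and 214 CPM. TAZ-CAMTA1, at 46.1, 46.6 and 50.1 CPM, was not called. HTRA1, a secreted serine protease that can cut IGFBP5, rose in YAP-TFE3 to 51.4, 54.9 and 89.0 CPM from 14.3, 17.6 and 22.1 CPM in EV (1.86 ± 0.18, edgeR adjusted p = 8.35e-09) and was 3.05 ± 0.19 above YAP5SA (edgeR adjusted p = 4.97e-12).

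H19 is the imprinted non-coding RNA gene next to IGF2. Against EV it ran opposite to IGF2 in YAP5SA and the libraries labelled TAZ4SA, and the same way in YAP-TFE3. Its level in EV was 309, 201 and 285 CPM and in the libraries labelled TAZ4SA 22.3, 25.9 and 13.1 CPM, a log2 change of -3.70 ± 0.40 (edgeR adjusted p = 6.40e-08). It was also lower in YAP5SA, at 97.6, 116 and 42.8 CPM (-1.64 ± 0.37, edgeR adjusted p = 0.000845), and in YAP-TFE3, at 79.2, 79.1 and 27.1 CPM (-2.10 ± 0.37, edgeR adjusted p = 5.28e-05). IGF2 was higher in the first 2 of these groups and lower in the last. TAZ-CAMTA1 held the most H19, 640, 575 and 489 CPM, above every EV library, but its change of 1.10 ± 0.36 was not called (edgeR adjusted p = 0.0822). It was called with the groups compared alone (1.09, adjusted p = 0.000192) and without replicate 3 in every group (1.25, adjusted p = 0.00726). PIK3R1, the regulatory subunit of PI3-kinase, fell from 173, 154 and 151 CPM in EV to 22.7, 26.5 and 31.2 CPM in the libraries labelled TAZ4SA (-2.57 ± 0.14, edgeR adjusted p = 3.75e-13) and to 32.6, 33.9 and 42.5 CPM in YAP5SA (-2.13 ± 0.14, edgeR adjusted p = 5.93e-12).

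Among relatives of the binding proteins, ESM1, a secreted proteoglycan with an IGFBP-type domain, rose from 4.18, 3.51 and 1.70 CPM in EV to 31.3, 32.1 and 24.8 CPM in the libraries labelled TAZ4SA (3.20 ± 0.34, edgeR adjusted p = 3.57e-08). EVsub stood as high, at 32.3, 16.7 and 36.5 CPM (3.16 ± 0.34, edgeR adjusted p = 9.88e-07). IGFBPL1, an IGFBP-like secreted protein, rose in YAP5SA to 38.8, 37.7 and 41.5 CPM from 6.11, 6.52 and 7.61 CPM (2.55 ± 0.13, edgeR adjusted p = 2.37e-13). In EVsub, PIK3CA, the catalytic subunit of PI3-kinase, was higher (0.73 ± 0.17, edgeR adjusted p = 0.00183), and KAZALD1, another IGFBP-related protein, and FOXO4 were lower (-1.32 ± 0.16 and -1.02 ± 0.12, edgeR adjusted p = 2.75e-06 and 2.21e-06). IGF2R, the receptor that carries IGF2 to lysosomes, is named here after its values were seen. It stood at 199, 248 and 272 CPM in EV and at 763, 814 and 736 CPM in YAP-TFE3, above every library of every other group, a log2 change of 1.69 ± 0.11 (edgeR adjusted p = 8.02e-12). TFE3 libraries, at 343, 261 and 356 CPM, overlapped with EV and were not called (0.42 ± 0.11, edgeR adjusted p = 0.488). Without TFE3 replicate 2 this change was called (0.54, adjusted p = 0.0372). YAP-TFE3 exceeded TFE3 by 1.27 ± 0.11 (edgeR adjusted p = 8.27e-10).

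**Figure D4:**
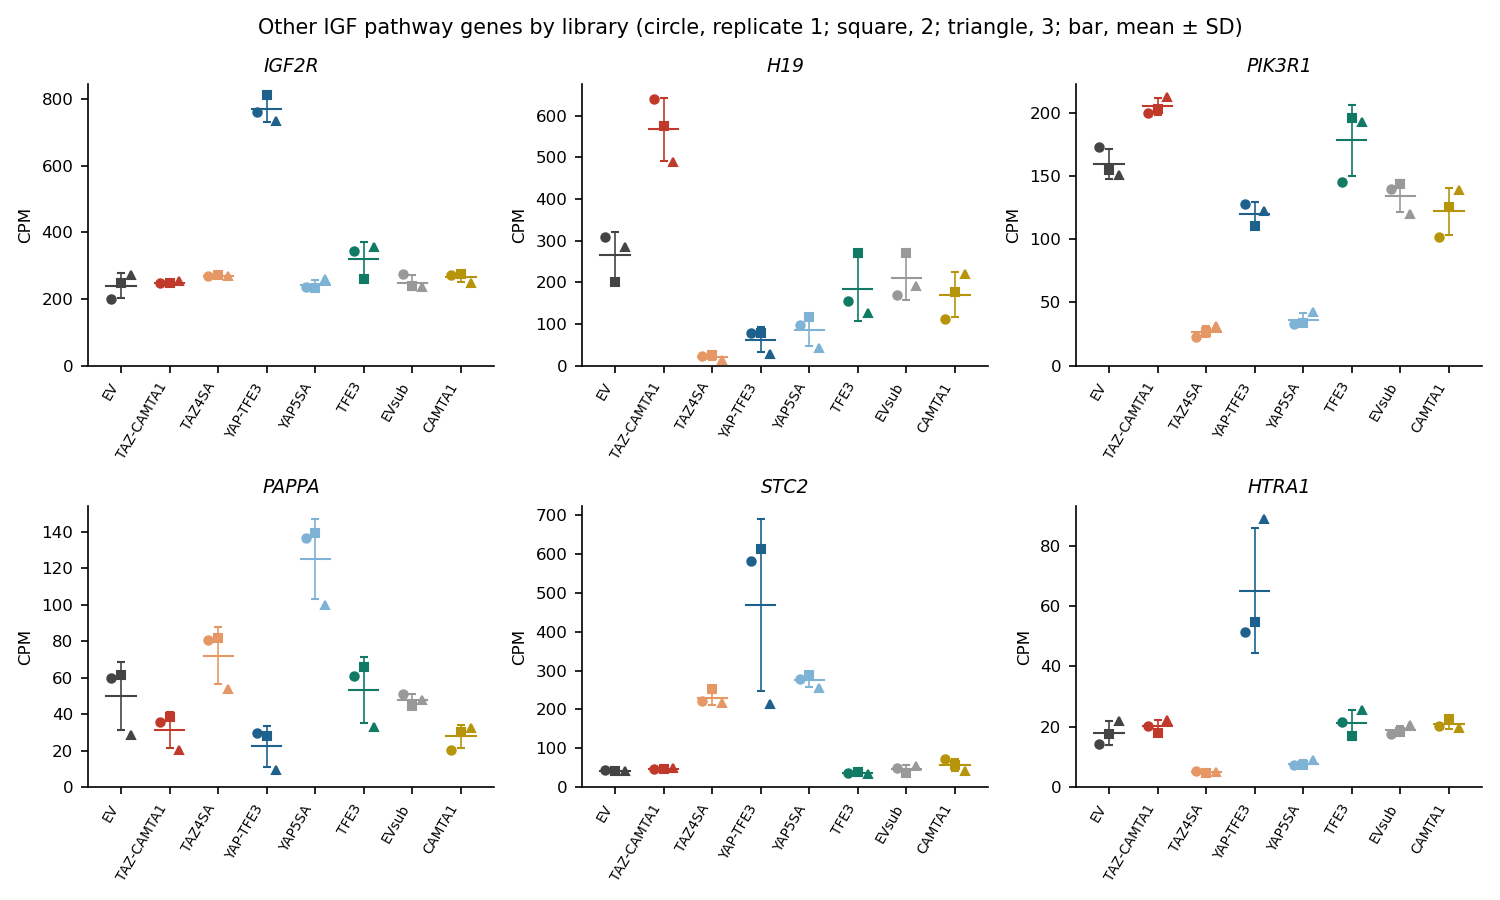
CPM (y axis, from 0) of 6 other genes of the IGF pathway in the 8 groups (x axis), with single libraries as symbols and the mean and SD of 3 as bars. IGF2R stands out in YAP-TFE3 at 736 to 814 CPM, and H19 and PIK3R1 are near the floor of their panels in the libraries labelled TAZ4SA, at 13.1 to 25.9 and 22.7 to 31.2 CPM.

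Over the 8 group means of log2 CPM, the closest pairs within the family were IGF2 with IGFBP4 (Pearson r = 0.956) and IGF1 with IGFBP2 (r = 0.913), and the most opposed were IGFBP3 and IGFBP6 (r = -0.778). These describe 8 points, which share constructs and culture states. Among 12155 genes searched, the patterns most like that of IGF2 belonged to MMP24 (r = 0.971), BRD1 (r = 0.969) and IDH2 (r = 0.967). Those most like IGFBP6 were CACNG4 (r = 0.985), NRF1 (r = 0.984) and IPO5 (r = 0.982), and those most like IGFBP5 were PDPN (r = 0.971), COL12A1 (r = 0.948) and PHLDA3 (r = 0.946). For IGF1, whose counts were few, KCND1 (r = 0.995), RAB26 and SEPTIN4 (both r = 0.987) came closest.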

How the data were processed

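The files are whole-number read counts per Ensembl gene for 24 polyA libraries made with a stranded kit, deposited by the authors as unnormalised counts. Per the study's methods they came from bcbio-nextgen with alignment by Hisat2 to hg38. The methods also describe pseudo-alignment by Salmon, with gene counts derived from transcript abundances by tximport. Whether the deposited whole numbers came by that route was not given in the sources used here. Nor was the handling of strand and multiple matches. The authors' own comparisons used other estimates and were not used.

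The 10 genes, the pathway and marker lists and the rule for named genes were chosen with earlier results of these data known. That rule named every family member and, per comparison, up to 2 risen and 2 fallen pathway genes averaging 100 or more counts; the 4 genes with the widest range got their 3 most similar genes. Counts were scaled by TMM and all 19997 genes averaging 5 or more counts were fitted over all 24 libraries with 1 mean per group in edgeR 4.0.16 (quasi-likelihood test, Benjamini-Hochberg adjustment over all genes, threshold 0.05) under R 4.3.3. The SE of a log2 change was taken as its size over the square root of F. Alternatives were a lower filter of 1 count, edgeR's own expression filter, DESeq2 1.42.0 and its size factors, total counts, the replicate number as a block, the groups compared alone and leaving out each library. RPKM used union exon lengths from GENCODE (a later annotation of the same assembly), whose genes matched 56104 of the 60279 identifiers. The scripts were tested on simulated data. Depth, at 19700277 to 35287476 counts a library, made 3 counts worth 0.0852 to 0.147 CPM.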

Additional observations from a re-analysis of the deposited data

How the results depend on the processing

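No called log2 change of a family gene turned its sign under any alternative. Over all genes and settings, 1400 refitted changes of family genes kept their side of the threshold, 46 passed it and 66 fell short of it. The number of family genes called in CAMTA1 against EVsub went from 0 to 1 with DESeq2 (IGF1R), to 1 with the groups compared alone (IGFBP5) and to 2 without replicate 3 in every group (IGFBP5 and IGFBP6). It went from 8 to 5 in YAP-TFE3 against YAP5SA and from 2 to 1 in YAP5SA against TAZ4SA with the groups alone, and from 5 to 8 in YAP-TFE3 against TFE3 without replicate 3 in every group, a setting chosen after seeing the data. Leaving out 1 library gave 1 to 2 in TAZ-CAMTA1 against EV, 3 to 6 in YAP-TFE3 against TFE3 and 4 to 6 in YAP-TFE3 against EV. It gave 1 to 2 in YAP5SA against TAZ4SA and 6 to 8 in TAZ-CAMTA1 against TAZ4SA. In YAP-TFE3 against YAP5SA it gave 6 to 7, and in TAZ-CAMTA1 against YAP-TFE3 4 to 6. The cause of these moves was not tested.

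The replicate numbers were not treated as pairs, since in no comparison did all 3 same-numbered pairs correlate above 0.1. Replicate 3 was nevertheless the lowest library of all 8 groups for 48 genes and the highest for 25, against 0 to 4 genes for replicates 1 and 2. The mean correlation ran from -0.0962 to 0.189. With a replicate block the counts of family genes were 3 in TAZ-CAMTA1, 7 in TAZ4SA, 7 in YAP-TFE3, 9 in YAP5SA and 0 in TFE3 against EV, and 3 in YAP5SA against TAZ4SA. The block called IGFBP5 in TAZ-CAMTA1 (1.28, adjusted p = 0.0192) and YAP-TFE3 (0.95, adjusted p = 0.0179) against EV. Total counts changed the split of all called genes from 5013 higher and 4835 lower to 3355 and 7317 in TAZ4SA against EV, from 5125 and 4519 to 4321 and 5536 in YAP-TFE3 against EV, from 4534 and 4325 to 3134 and 6842 in YAP5SA against EV, from 5376 and 5354 to 7486 and 3695 in TAZ-CAMTA1 against TAZ4SA, from 3956 and 3412 to 3106 and 4289 in EVsub against EV, from 252 and 114 to 222 and 169 in CAMTA1 against EVsub, from 5089 and 4503 to 4223 and 5702 in YAP-TFE3 against TFE3, and from 3970 and 4564 to 5094 and 3763 in TAZ-CAMTA1 against YAP-TFE3. DESeq2 called 15 genes in TFE3 against EV where edgeR called 7, the groups alone 2 and fits without 1 library 1 to 12, and the groups alone gave 648 in CAMTA1 against EVsub where the fit of all groups gave 366, the fit without replicate 3 in every group 742 and fits without 1 library 177 to 447. Fits without 1 library called 545 to 884 genes in TAZ-CAMTA1 against EV, where all libraries gave 996, and 900 to 1299 in YAP5SA against TAZ4SA, where all gave 1434. RPKM over the longest transcript put IGFBP3 in EV at 1.51 in place of 0.867. Depth limits IGF1 and IGFBP1, at 36 counts or fewer a library.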

Other observations

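Family genes lie as close neighbours at a pair of loci. IGFBP2 and IGFBP5 face each other on chromosome 2 with 7668 bases and no protein-coding gene between them. In YAP5SA against EV IGFBP2 was lower (-0.85 ± 0.13) and IGFBP5 higher (2.01 ± 0.45), and over the 8 group means their Pearson r was -0.175. IGFBP1 and IGFBP3 lie 18584 bases apart on chromosome 7, also with no protein-coding gene between them. IGFBP1 had at most 1 count in any library, where IGFBP3 had 41 to 235.

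PAPPA2, a protease of IGFBP3 and IGFBP5, had a mean of 0.0634 ± 0.0352 CPM in EV, 6.49 ± 0.321 CPM in the libraries labelled TAZ4SA, 2.03 ± 0.257 CPM in YAP5SA and 1.09 ± 0.357 CPM in YAP-TFE3. All 3 groups were called above EV (edgeR adjusted p = 3.88e-13, 5.80e-10 and 5.07e-08), and PAPPA2 was lower in YAP5SA than in TAZ4SA (-1.67 ± 0.21, edgeR adjusted p = 9.25e-06). The EV mean lay below the 0.0852 to 0.147 CPM that 3 counts are worth, so the size of the rise is not given. Under the rule for named genes PAPPA2 was named only for YAP5SA against TAZ4SA.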
